A study of Mus musculus with 22 samples.

Results

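The CCAAT/enhancer-binding proteins (C/EBPs) are a family of transcription factors, and 6 genes named for it are described here: Cebpa, Cebpb, Cebpd, Cebpe, Cebpg and Cebpz. They were found by these gene names, which gave 6 of the 55415 lines of the table, each present under 1 identifier. The family was chosen by its measured changes in this table, those with dDAVP and between GFP fractions among them, so the levels and calls of its members below are a description and lend no support to any further statement. The cells were mpkCCD, an immortalised line from the mouse cortical collecting duct (secondary clone 38) that makes aquaporin-2 (Aqp2), the water channel that vasopressin induces. Unsorted wild-type (WT) cells without dDAVP (labelled as untreated, while the growth protocol speaks of vehicle) or with dDAVP, a vasopressin analogue acting on the V2 receptor, gave 3 libraries each. The 4 reporter lines C1, C11, C43 and C50, each of which is taken here as a single clone from its name, carried a GFP reporter of Aqp2 expression, were all given dDAVP, and were divided into GFP-negative and GFP-positive cells with 2 libraries per fraction. All 10 groups were grown in medium with 50 nM dexamethasone, a glucocorticoid, so none shows the family without glucocorticoid, and the labels do not tie a dDAVP dose or duration to a library.

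C/EBPs bind DNA through a basic region next to a leucine zipper (together, a bZIP domain) and act as homo- or heterodimers. C/EBP alpha, beta, delta and epsilon carry activation domains, whereas C/EBP gamma (Cebpg) is a short protein with no activation domain of its own that dimerises with the others and with ATF4. C/EBP beta and delta are classical acute-phase factors induced by cytokines, glucocorticoids and cAMP, the second messenger of the V2 receptor. Cebpz shares the name but is not a bZIP protein and is related to nucleolar factors of ribosome assembly.

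The shared ancestry is visible in the coding sequence of the basic region, which is shown to let the bZIP members be compared there, and because sequence similarity bears on how well short reads tell the genes apart. The stretches of 60 coding bases below are from GENCODE M21 transcripts (mouse genome build GRCm38), written 5′ to 3′ on the coding strand. The Cebpb stretch was picked as the one most alike in Cebpa, Cebpd and Cebpe, and Cebpg had no part in the choice. For each other gene the best ungapped match to it is shown. Capitals mark the bases that are the same as in Cebpb at that position.
Cebpb: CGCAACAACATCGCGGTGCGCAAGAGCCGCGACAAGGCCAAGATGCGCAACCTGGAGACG
Cebpd: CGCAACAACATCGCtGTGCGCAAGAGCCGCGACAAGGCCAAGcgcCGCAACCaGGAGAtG
Cebpe: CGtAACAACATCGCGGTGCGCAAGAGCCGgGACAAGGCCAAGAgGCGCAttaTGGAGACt
Cebpa: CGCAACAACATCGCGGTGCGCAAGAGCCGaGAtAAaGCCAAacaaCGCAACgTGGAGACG
Cebpg: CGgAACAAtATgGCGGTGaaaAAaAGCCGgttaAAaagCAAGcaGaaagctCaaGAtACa
Cebpd had the same base as Cebpb at 54 of the 60 positions, Cebpe at 53 and Cebpa at 52, against 34 in Cebpg. The way the stretch was picked favours high counts in Cebpd, Cebpe and Cebpa, and so a gap to Cebpg. The best ungapped match anywhere in the Cebpz coding sequence had 30 of 60 bases in common and that in Ddit3, the more distant bZIP relative CHOP, had 27. The longest run of identical bases shared by any pair among the transcripts of the 6 genes and Ddit3 was between 10 and 29 bases over the 21 pairs, which is shorter than the 50 base reads. Overlap on the genome concerned Cebpz, whose exons share 171 bases (3.67% of its exonic bases) with Cebpzos, a gene on the opposite strand. The library kit is not stated to mark strand, so reads in that stretch cannot be told apart.

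The RefSeq promoter table (build GRCm38.p6) held Cebpa, Cebpb and Cebpg, and not Cebpd, Cebpe or Cebpz. The 250 bases before the start of Cebpb, on the plus strand at chr2:167688665-167688914, are shown because cAMP signalling is known to act through the cAMP response element and this is the most abundant member. Capitals mark each match, on either strand, to TGACG, the core of that element.
Cebpb promoter: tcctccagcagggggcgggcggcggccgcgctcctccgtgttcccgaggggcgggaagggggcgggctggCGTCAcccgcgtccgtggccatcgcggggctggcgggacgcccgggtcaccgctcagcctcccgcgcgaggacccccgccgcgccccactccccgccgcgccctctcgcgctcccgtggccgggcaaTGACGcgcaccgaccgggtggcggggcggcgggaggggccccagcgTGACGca
The matches began 180, 53 and 7 bases before the annotated start. Of 32851 windows of this length in the table, 17.77% held at least 1 match and 0.688% held 3 or more. The Cebpa and Cebpg windows held no TGACG, and the Aqp2 window held 1, which began 211 bases before its start. TTNNGNAA, a degenerate form of the C/EBP recognition sequence, was found in 36.85% of all windows and in none of the Cebpa, Cebpb, Cebpg or Aqp2 windows. These are letter matches in short windows and nothing is drawn from them about binding.

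Levels are given as the authors' TPM (transcript abundance scaled for length and to a fixed total), so that genes may be compared with each other. TPM keep no depth, so the depth of each library is unknown. Libraries had 12293 to 14341 genes at 1 TPM or more. By the number of genes above 0 they fell into 10 libraries with 17177 to 20250 genes and 12 with 23135 to 31292. Results are also given within these sets of libraries. Both C1 GFP-negative libraries were in the set with fewer genes and both C11 GFP-negative libraries in the set with more. The GFP differences in the set with more genes therefore draw nothing from C1. Those in the set with fewer draw nothing from C11. GFP averaged 8.11 to 16.4 TPM in the GFP-negative groups and 1114 to 1496 TPM in the GFP-positive groups, and 0.38 TPM in WT cells without dDAVP. Of 12 principal-cell markers 8 averaged at least 1 TPM (Avpr2, the V2 receptor, 137 to 385 TPM), while Scnn1b, Elf5, Kcnj1 and Tfap2b did not. The bulk libraries cannot tell fewer cells that make a transcript from less of it per cell. No label says whether replicates were separate cultures, so p-values measure the spread between these libraries only.

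The 6 genes differed widely in abundance (plot of levels by library). Cebpb was the most abundant member in every library, from 429 to 783 TPM with a median of 588 TPM. Cebpg (31.9 to 63.5 TPM) and Cebpz (23.4 to 49.7 TPM) lay at an intermediate level. Cebpd ranged from 2.82 to 91.3 TPM with a median of 28.6 TPM. Cebpa, the factor of adipocyte, liver and granulocyte differentiation, was at 0.59 TPM or less and listed at 0 in 3 of 22 libraries. Cebpe, the late granulocyte factor, was listed at 0 in 18 of 22 libraries and reached 0.30 TPM. These last members did not reach a mean of 1 TPM and were not tested, which left 4 of 6 members with a test.

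**Figure D1:**
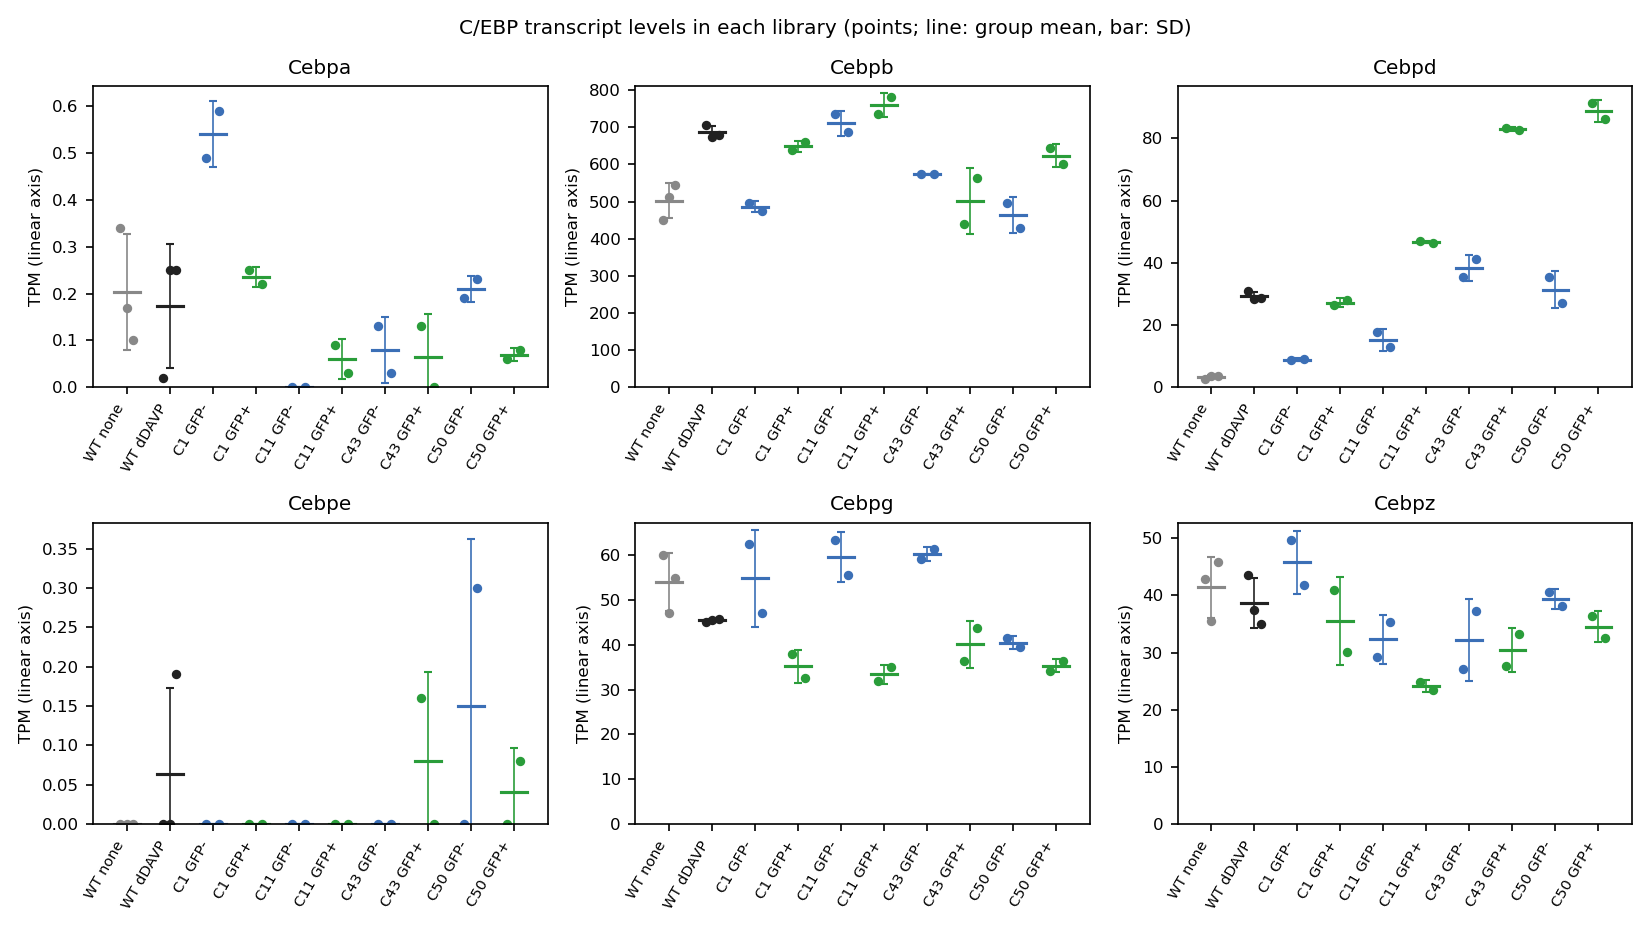
TPM of the 6 C/EBP genes (vertical linear axes, starting at 0 and scaled per gene) in each of the 22 libraries, grouped along the horizontal axis. Points are libraries, short lines group means and bars the SD (n = 3 in WT groups, n = 2 in clone fractions). Group means of Cebpd run from 3.41 TPM in WT cells without dDAVP to 88.8 TPM in C50 GFP-positive cells, and those of Cebpb from 463 to 760 TPM.

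Cebpd showed the largest differences of the family in both comparisons. Its level in WT cells without dDAVP was 2.82, 3.69 and 3.73 TPM, and in WT cells with dDAVP 30.97, 28.39 and 28.79 TPM. The groups did not overlap, and the means of 3.41 ± 0.514 and 29.4 ± 1.39 TPM (SD, n = 3 each) differed 8.61-fold. On the log2(TPM + 1) scale used for all tests, which understates changes of low genes, Cebpd rose by 2.79 ± 0.12 (SE; limma, Benjamini-Hochberg adjusted p = 8.03e-05, 13494 genes tested). Of the 320 genes called higher at an adjusted p under 0.05, 8 had a larger change. In the 4 of these libraries with more genes detected the change was 2.81 (adjusted p = 0.00799), and the set with fewer genes had 1 library per group.

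In the clones, Cebpd was higher in the GFP-positive than in the GFP-negative fraction of each clone, with no overlap, as were 6.72% of genes tested (18.9% were apart in the same direction in all 4 clones). In C1 it was at 8.64 and 9.20 TPM in GFP-negative and at 26.30 and 28.22 TPM in GFP-positive libraries, a 3.06-fold difference of means. In C11 the GFP-negative libraries had 17.81 and 12.82 TPM and the GFP-positive libraries 47.02 and 46.40 TPM, which is 3.05-fold. C43 had higher levels in both fractions, 35.32 and 41.21 TPM against 83.40 and 82.59 TPM, and the smallest ratio of 2.17-fold. C50 had 35.59 and 27.14 TPM against 91.32 and 86.27 TPM, a 2.83-fold difference. Over all clones Cebpd rose by 1.42 ± 0.09 (SE; limma with clone as covariate, adjusted p = 5.12e-08, 13113 genes tested) and was higher in 8 of 8 pairs of same-numbered libraries, which is a count only, since the numbers are not shown to pair the fractions. Of 1582 genes called higher, 20 had a larger change.

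Clone by clone, the Cebpd difference was 1.51 for C1 (limma adjusted p = 2.59e-04), 1.57 for C11 (2.28e-04), 1.10 for C43 (0.00112) and 1.48 for C50 (1.02e-04), with an SE of 0.17 each. These did not differ between clones beyond the spread (moderated F-test of the interaction, limma adjusted p = 0.556), whereas the clones' levels did (limma adjusted p = 2.92e-07). The GFP difference of Cebpd was 1.48 (limma adjusted p = 0.00217) in the set of clone libraries with more detected genes and 1.28 (adjusted p = 0.0255) in the set with fewer. The former draws nothing from C1 and the latter nothing from C11.

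Ordered by mean, Cebpd ran from WT without dDAVP (3.41 TPM) through C1 GFP-negative (8.92 TPM), C11 GFP-negative (15.3 TPM), C1 GFP-positive (27.3 TPM), WT with dDAVP (29.4 TPM), C50 GFP-negative (31.4 TPM), C43 GFP-negative (38.3 TPM), C11 GFP-positive (46.7 TPM) and C43 GFP-positive (83.0 TPM) to C50 GFP-positive (88.8 TPM), a 26.0-fold span. In 7 of the 9 steps the neighbouring groups did not overlap. The exceptions were C50 GFP-negative against WT with dDAVP and against C43 GFP-negative. The GFP-negative cells of every clone, which had received dDAVP, had more Cebpd than WT cells without it, and in C1 and C11 less than WT cells with it. The deposited table lists Cebpd at row 12, the last of 12 genes placed at the top out of identifier order, a position that was looked up after its values were known.

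Cebpb, the other acute-phase factor, differed much less. It was at 451.51, 511.79 and 544.94 TPM in WT cells without dDAVP and at 705.64, 675.02 and 679.23 TPM with dDAVP. The groups did not overlap, and the means of 503 ± 47.4 and 687 ± 16.6 TPM (SD, n = 3 each) differed 1.37-fold. On the log2 scale Cebpb rose by 0.45 ± 0.08 (SE; limma adjusted p = 0.0205), and 236 of the 320 genes called higher had a larger change. This call was lost in 7 of 15 alternatives, among them the replicate block (limma adjusted p = 0.125), leaving out replicate 2 without dDAVP (0.0664), replicate 1 with dDAVP (0.0697) or replicate 3 with dDAVP (0.0830), and the libraries with more genes detected (log2 change 0.49, adjusted p = 0.124).

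Between GFP fractions the Cebpb values did not lie in the same direction in every clone. In C1 it was at 497.55 and 476.04 TPM in GFP-negative and 637.78 and 659.49 TPM in GFP-positive libraries, and in C50 at 497.30 and 428.50 TPM against 644.85 and 601.81 TPM. In C11 the fractions lay close together at 734.90 and 687.32 TPM against 736.36 and 782.70 TPM, the highest levels of any clone. In C43 the GFP-positive libraries were the lower ones, 574.32 and 574.40 TPM against 438.94 and 564.00 TPM. The fractions were therefore apart in all 4 clones, 3 with higher and 1 with lower GFP-positive levels, a pattern of mixed directions found in 1.81% of genes tested. The C43 difference of −0.21 ran from −0.39 to −0.03 leaving out single libraries. It was −0.03 without GFP-positive replicate 1, the library at 438.94 TPM, and −0.02 under median-ratio scaling.

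Over all clones the Cebpb difference was 0.18 ± 0.09 (SE; limma adjusted p = 0.124, higher in 6 of 8 pairs), which did not pass. It was 0.31 (limma adjusted p = 0.00993) without clone C43 and 0.25 (adjusted p = 0.0140) without replicate 1 of C43 GFP-positive, the library at 438.94 TPM. It was 0.05 (adjusted p = 0.830) in the clone set with more detected genes and 0.26 (0.301) in the set with fewer. The former draws nothing from C1 and the latter nothing from C11, so these values also differ in the clones they cover. Clone by clone the Cebpb difference was 0.41 for C1 (limma adjusted p = 0.0539), 0.10 for C11 (0.730), −0.21 for C43 (0.264) and 0.43 for C50 (0.0176), with an SE of 0.11 each. The C50 call was lost without either GFP-positive library of C50 (0.112 and 0.0558) and under median-ratio scaling (0.209). The interaction of fraction and clone had a limma adjusted p of 0.194, and 0.0213 without replicate 2 of C50 GFP-negative, where 5038 genes were called in place of 114. Clones differed in Cebpb level (limma adjusted p = 0.0288), a call that was lost in 6 of 22 alternatives (adjusted p up to 0.139). Among these were the fits leaving out any 1 of the 4 C11 libraries (limma adjusted p = 0.0508 to 0.103).

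Cebpg, the dimer partner without an activation domain, was lower in GFP-positive cells. WT cells without dDAVP had 60.09, 47.13 and 54.94 TPM and WT cells with dDAVP 45.16, 45.43 and 45.79 TPM. The dDAVP libraries all lay below the others, but the difference of −0.24 ± 0.10 (SE; limma adjusted p = 0.157) did not pass. It was −0.07 under median-ratio scaling and −0.09 under quantile normalization. In C1 the GFP-negative libraries had 62.44 and 47.18 TPM and the GFP-positive libraries 37.83 and 32.56 TPM. C11 had 63.49 and 55.63 TPM against 31.89 and 34.95 TPM, the largest drop. C43 had 59.11 and 61.38 TPM against 36.44 and 43.78 TPM, and C50 41.55 and 39.44 TPM against 34.25 and 36.36 TPM. The GFP-positive fraction was lower without overlap in all 4 clones, as for 12.2% of genes tested.

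Over all clones Cebpg fell by 0.55 on the log2 scale (SE 0.09; limma adjusted p = 3.26e-04, lower in 8 of 8 pairs). The difference was −0.59 (limma adjusted p = 0.0326) in the clone set with more detected genes and −0.43 (0.224, not called) in the set with fewer. Within clones it fell by 0.61 in C1 (limma adjusted p = 0.0325), 0.81 in C11 (0.00830) and 0.58 in C43 (0.0247), and the difference in C50 was −0.19 (0.374), with an SE of 0.15 each. None of these 3 calls held under median-ratio scaling (limma adjusted p = 0.145 for C1, 0.0662 for C11 and 0.210 for C43) or quantile normalization (0.146, 0.0606 and 0.201). The C1 call was lost in 13 of 23 alternatives, among them those without GFP-negative replicate 1 (−0.42, limma adjusted p = 0.279), GFP-positive replicate 1 (0.0862) or GFP-positive replicate 2 (0.239). The C11 call was lost without GFP-negative replicate 1 (limma adjusted p = 0.0855) or GFP-positive replicate 1 (0.0873), and the C43 call without GFP-negative replicate 1 (0.109), GFP-negative replicate 2 (0.116) or GFP-positive replicate 1 (0.128). The interaction (limma adjusted p = 0.440) and the clone differences (0.181) did not pass. GFP-positive groups held the lowest ranks of the order, from C11 GFP-positive (33.4 TPM) to C43 GFP-positive (40.1 TPM), and C43 GFP-negative was highest (60.2 TPM).

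Cebpz, the relative of ribosome assembly factors, had the smallest difference among the members called between GFP fractions. It was at 42.92, 35.49 and 45.88 TPM in WT cells without dDAVP and 43.60, 37.44 and 35.02 TPM with it. The groups overlapped and the difference was −0.09 ± 0.13 (SE; limma adjusted p = 0.629), which turned to 0.07 under median-ratio scaling and under quantile normalization. In C1 it was at 49.73 and 41.89 TPM against 41.00 and 30.13 TPM, in C11 at 29.29 and 35.29 TPM against 24.84 and 23.37 TPM, and in C50 at 40.68 and 38.14 TPM against 36.47 and 32.58 TPM, GFP-negative before GFP-positive. In C43 the fractions overlapped, with 27.16 and 37.21 TPM against 27.68 and 33.22 TPM. Cebpz fell by 0.26 over all clones (SE 0.09; limma adjusted p = 0.0473, lower in 7 of 8 pairs), but this was lost in 21 of 31 alternatives, in 11 of which 1 library was left out. With the 2 other scalings the adjusted p was 0.229 and 0.257. It was −0.20 (0.228) in the clone set with more detected genes and −0.15 (0.613) in the set with fewer. No single clone passed (limma adjusted p = 0.332 for C1, 0.267 for C11, 0.869 for C43 and 0.498 for C50). Clones differed in Cebpz level (limma adjusted p = 0.0315, lost in 8 of 22 alternatives, 7 of them with 1 library left out). Cebpzos, with which it shares bases, had a GFP difference of −0.03 (limma adjusted p = 0.857).

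In counts, 2 of 4 tested members were called with dDAVP in WT cells, both higher (Cebpb and Cebpd), where 8.88% of 13494 genes were called, 2.37% higher and 6.51% lower. Groups without overlap were seen in 3 of 4 members (Cebpb and Cebpd higher, Cebpg lower), against 35.8% of genes (7.12% higher, 28.7% lower). Between GFP fractions 3 of 4 were called (Cebpd higher, Cebpg and Cebpz lower), where 35.3% of 13113 genes were called, 12.1% higher and 23.2% lower. In single clones Cebpd was called in each, with Cebpg in C1, C11 and C43 and with Cebpb in C50. The background was 7.22% of genes for C1 (2.31% higher, 4.91% lower), 7.94% for C11 (2.23% and 5.70%), 16.3% for C43 (4.29% and 12.0%) and 26.6% for C50 (12.8% and 13.8%). Cebpd was called higher in both comparisons, as were 1.86% of the 12765 genes tested in both. No member had a called interaction of fraction and clone in limma, with 0.869% of genes called. Cebpb had the smallest adjusted p of the interaction, 0.194 (limma), and was the 1 member under 0.05 before adjustment. Of the 4, 3 differed between clones (Cebpb, Cebpd and Cebpz), with 28.0% of genes called. Under median-ratio and quantile scaling the share of higher among called genes went from 26.7% to 63.7% and 54.1% with dDAVP, and from 34.2% to 51.1% and 50.5% between fractions, while no called member changed direction. Since the family was chosen with these contrasts known, nothing is read from the counts.

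**Figure D2:**
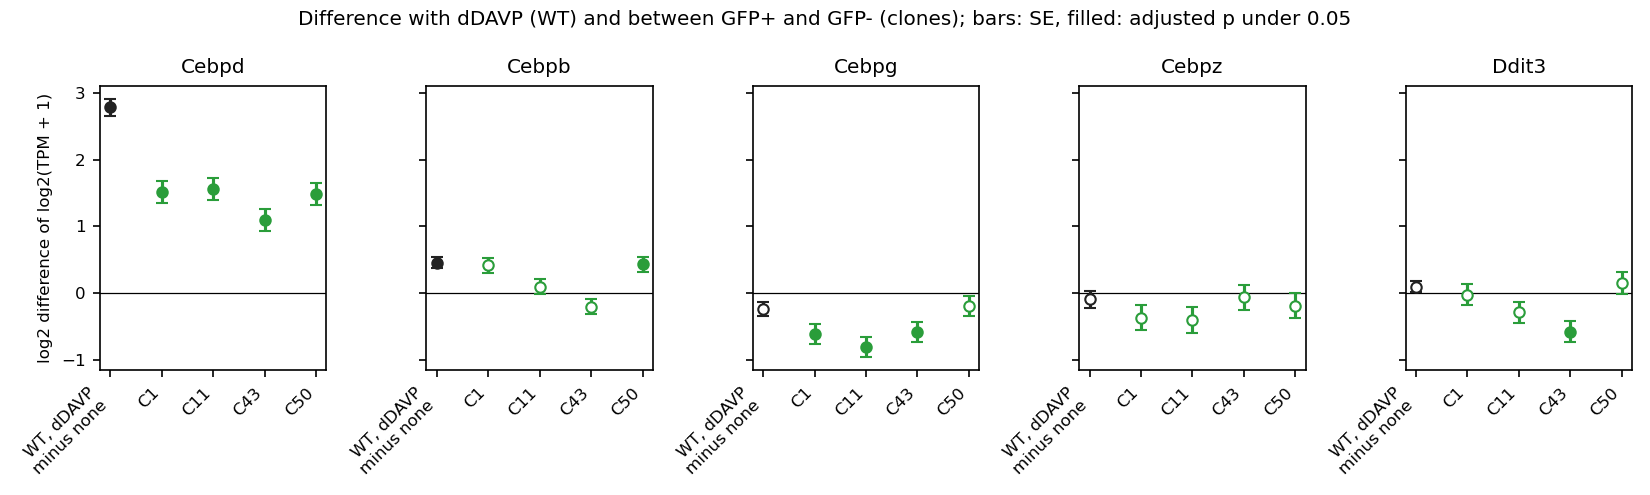
Differences of mean log2(TPM + 1) (vertical axis) with dDAVP in WT cells (black) and between GFP-positive and GFP-negative fractions in each clone (green) for 4 C/EBP genes and their relative Ddit3, with SE bars from limma. Filled points have an adjusted p under 0.05. Cebpd lies between 1.10 and 2.79 in all 5 settings, Cebpg lies below 0 in all 5, and Cebpb is below 0 in C43 only.

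The make-up of the bZIP members' transcripts shifted with these changes. Cebpb made up a mean of 80.1% to 91.2% of the summed TPM of Cebpa, Cebpb, Cebpd, Cebpe and Cebpg in the 10 groups. Cebpd made up 0.607% in WT cells without dDAVP and 3.86% with it, and between 1.62% (C1) and 5.83% (C50) in GFP-negative groups. Its share in the GFP-positive groups was 3.83% (C1), 5.57% (C11), 13.4% (C43) and 11.9% (C50). The ratio of Cebpb to Cebpd transcripts was 148 ± 10.9 (SD, n = 3) in WT cells without dDAVP, 23.4 ± 0.528 with it, and down to 6.05 ± 1.11 (SD, n = 2) in C43 GFP-positive cells. These are transcript shares and say nothing of the protein isoforms of C/EBP beta, which arise by choice of the translation start.

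Cebpd and Aqp2 had a similar but not identical order over the groups. Their group means had a Pearson r of 0.944 and a Spearman rho of 0.891 on the log2 scale over the 10 groups, 0.880 (Pearson) over the 8 groups left without the pair farthest from the median of Aqp2, and 0.958 over the 8 clone groups alone. Each pair of values comes from the same libraries, and all clone groups received dDAVP. The clone cells were divided by a reporter of Aqp2 and the family was chosen by its changes here, so these coefficients are a description. Cebpd averaged 31.4 and 38.3 TPM in C50 and C43 GFP-negative cells, above C1 GFP-positive (27.3 TPM) and WT dDAVP (29.4 TPM) cells. In Aqp2 this was turned round, with 1243 and 1624 TPM against 2017 and 2868 TPM. The size of the changes was unequal. Aqp2 differed 29.0-fold between the fractions of C1, 12.0-fold for C11, 4.28-fold for C43 and 3.74-fold for C50, and the interaction of Aqp2 was called (limma adjusted p = 2.15e-06), while the Cebpd ratio lay between 2.17 and 3.06 in these clones. C1 GFP-negative cells had about as much Aqp2 (72.57 and 66.50 TPM) as WT cells without dDAVP (64.11, 74.90 and 68.37 TPM) and yet 8.64 and 9.20 TPM of Cebpd against 2.82 to 3.73 TPM.

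**Figure D3:**
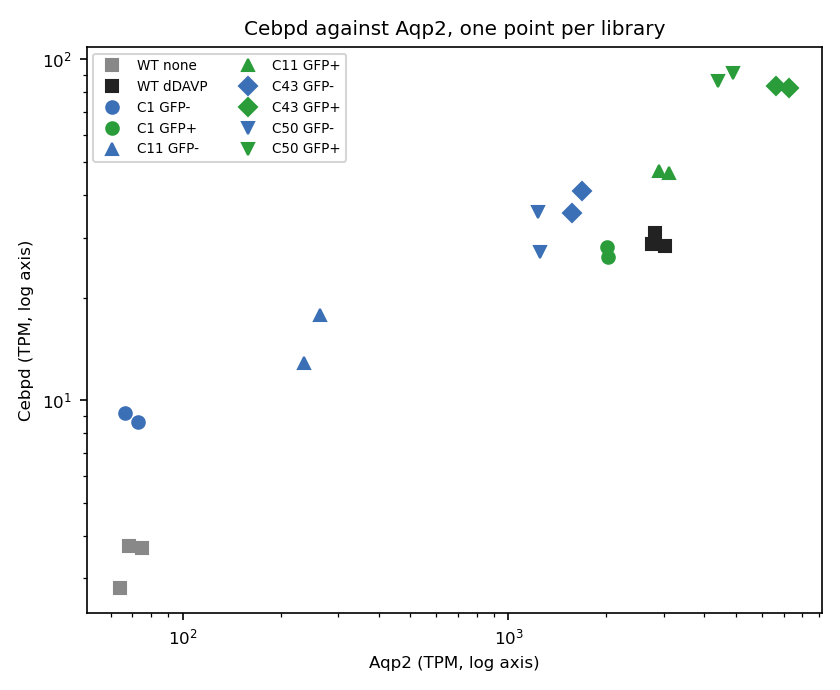
Cebpd against Aqp2 in TPM, both on log axes, with 1 point per library, shapes for the cell line and colours for the group (grey WT without dDAVP, black WT with dDAVP, blue GFP-negative, green GFP-positive). WT libraries without dDAVP sit at 2.82 to 3.73 TPM of Cebpd, and the C43 and C50 GFP-positive libraries at 82.59 to 91.32 TPM.

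The other members did not share this order. Over the same 10 group means the Pearson r with Aqp2 was 0.327 for Cebpb, −0.682 for Cebpg and −0.603 for Cebpz, and without the 2 groups farthest from the median of Aqp2 it was −0.225, −0.646 and −0.147. Among 9621 genes with a mean of at least 5 TPM, those whose group means followed Cebpd most closely were Cystm1 (r = 0.981), Bcat1 (0.973), which encodes a branched-chain aminotransferase, and the keratin Krt19 (0.966), and Aqp2 ranked 5. For Cebpb they were Snx30 (0.927), Slc25a25 (0.901) and Setmar (0.896). For Cebpg they were Lars (0.981), the cytosolic leucyl-tRNA synthetase, Pigs (0.976) and Gtf2h1 (0.966). For Cebpz they were Borcs7 (0.954), Mak16 (0.935), a ribosome assembly factor, and Zc3h13 (0.921). With 10 points and 9621 genes these are descriptions of rank only.

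The gene lists from here on were chosen with earlier results of these data known. Their counts and medians beside those of all genes are therefore a description, and no shift of a list is read from them. Among the bZIP partners and relatives, 3 of 8 tested were called lower with dDAVP and none higher, with a list median of −0.11. Of all genes tested 2.37% were called higher and 6.51% lower with dDAVP, with a median of −0.16. Tef fell from 28.0 ± 2.81 to 17.2 ± 2.40 TPM (log2 difference −0.67), Dbp from 13.7 ± 1.75 to 8.84 ± 0.315 TPM (−0.57) and Atf3, an early stress-response factor, from 1778 ± 98.9 to 1335 ± 44.0 TPM (−0.41; SD, n = 3 each). The calls were lost in 8, 10 and 7 of 15 alternatives, all 3 of them without replicate 1 with dDAVP or without replicate 3 with dDAVP (limma). Ddit3, which encodes CHOP and dimerises with C/EBPs to keep them from classical sites, differed by 0.10 with dDAVP (limma adjusted p = 0.468) and by −0.19 between GFP fractions (0.185). It ranged from 187 to 379 TPM and was called lower in C43 alone among the clones (−0.58, limma adjusted p = 0.0315), with an interaction that did not pass (0.358). Between GFP fractions 3 of 8 were called lower and none higher, while 12.1% of all genes tested were called higher and 23.2% lower, with a median of −0.06. Nfil3 fell from 74.1 ± 7.54 to 44.0 ± 6.81 TPM and Atf3 from 1312 ± 288 to 841 ± 188 TPM (SD, n = 8 each).

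Of 20 tested genes for upstream signalling, turnover and cofactors of C/EBPs, none was called higher and 2 were called lower with dDAVP (8.88% of all genes were called in either direction), with a median of −0.23. Celf1, an RNA-binding protein that acts on Cebpb translation, went from 66.7 ± 4.17 to 47.7 ± 4.70 TPM, a call lost in 11 of 15 alternatives. Across the fractions 2 passed as higher and 3 as lower (35.3% of all genes were called in either direction), with a median of −0.05 against −0.06 for all genes. The Tribbles pseudokinases Trib1 and Trib2 are known to direct C/EBP alpha to degradation, and Trib3 is a relative of theirs. Trib3 fell from 137 ± 53.6 to 23.1 ± 5.80 TPM (log2 difference −2.42, SD, n = 8 each; limma adjusted p = 3.58e-06), and Trib1 rose from 62.7 ± 14.0 to 80.8 ± 12.0 TPM (0.38, limma adjusted p = 0.0418, lost in 19 of 31 alternatives).

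Of 27 acute-phase and defence genes with known C/EBP sites or dependence, 10 passed the filter in WT cells, 4 were called higher and none lower with dDAVP, against 2.37% and 6.51% of all genes. The list median was 0.53. Complement component C3 rose from 32.6 ± 4.08 to 124 ± 30.1 TPM (log2 difference 1.88, limma adjusted p = 0.00167), and Lbp, the lipopolysaccharide-binding protein, from 26.7 ± 1.78 to 62.3 ± 6.40 TPM (1.19). Cxcl1 (0.63) and Cd14 (0.44) rose less, and their calls were lost in 4 and 9 of 15 alternatives (limma). Both were lost without replicate 2 of the cells without dDAVP or replicate 3 with dDAVP. Under quantile normalization 4 genes of the list were called higher and 1 lower with dDAVP. Across the fractions 3 of 9 passed as higher and 3 as lower (12.1% and 23.2% of all genes), with a median of 0.09. C3 rose from 72.8 ± 22.6 to 175 ± 49.8 TPM and Lbp from 58.6 ± 28.0 to 107 ± 35.1 TPM. Lcn2, an iron-siderophore binding protein, fell from 2321 ± 1089 to 1218 ± 577 TPM and the chemokine Cxcl2 from 11.4 ± 9.18 to 4.58 ± 3.89 TPM (SD, n = 8 each).

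Metabolic and growth-arrest genes linked to C/EBPs gave 0 limma calls of 9 tested with dDAVP (2 at an unadjusted p under 0.05, both lower), where 8.88% of all genes were called. Across the fractions 1 passed as higher and 5 as lower (12.1% and 23.2% of all genes), with a median of −0.39 against −0.06 for all genes. Gadd45a, a DNA damage and stress gene, fell from 146 ± 16.6 to 35.2 ± 14.5 TPM (log2 difference −2.10), Plin2 from 113 ± 15.8 to 72.6 ± 12.0 TPM and Cdkn1a, the cell-cycle inhibitor p21, from 864 ± 125 to 629 ± 207 TPM. Acsl1 rose from 5.69 ± 2.78 to 8.10 ± 2.50 TPM, a call lost in 7 of 31 alternatives. Of 11 myeloid C/EBP targets 3 passed the filter. With dDAVP 1 was called higher (2.37% of all genes), Ltf (lactoferrin), from 0.50 ± 0.517 to 3.97 ± 1.17 TPM (SD, n = 3 each). It passed the filter on low values only through the dDAVP libraries, so its call is no support for a difference. Between fractions 1 was called higher and 2 lower (12.1% and 23.2% of all genes). Csf1r fell from 16.6 ± 4.08 to 10.7 ± 2.05 TPM and Ltf rose from 3.34 ± 2.30 to 7.54 ± 5.67 TPM (SD, n = 8 each), the latter lost in 4 of 31 alternatives, among them without clone C1. Of 7 leukocyte markers, 2 (Csf1r and Cd68) averaged at least 1 TPM, Ptprc stayed at 1.87 TPM or less and Itgam at 0.04 TPM or less. Their summed level, which includes Csf1r and so is no separate measure beside it, was 17.5 to 32.0 TPM in GFP-negative and 11.7 to 21.5 TPM in GFP-positive libraries.

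Of 21 ribosome biogenesis factors, the setting of Cebpz, 0 were called by limma with dDAVP (4 at an unadjusted p under 0.05, all lower), against 6.51% of all genes called lower, and 12 were called lower between GFP fractions, with none higher and a median of −0.30. Of all genes tested 23.2% were called lower, with a median of −0.06. Under the 2 other scalings 10 and 11 were called lower and none higher. Rrp1b fell from 31.4 ± 2.36 to 17.7 ± 2.48 TPM, Noc4l, a relative of Cebpz, from 97.1 ± 7.59 to 57.2 ± 6.52 TPM, Rrs1 from 45.1 ± 5.39 to 28.6 ± 2.06 TPM and Nip7 from 74.4 ± 12.2 to 48.4 ± 7.83 TPM (SD, n = 8 each). Noc2l (log2 difference −0.13, limma adjusted p = 0.481) and Noc3l (−0.06, 0.849) of the same list were not called between fractions.

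Glucocorticoid-responsive genes were listed because Cebpd and Cebpb respond to glucocorticoid and all cells had dexamethasone. With dDAVP, 2 of 8 were called lower and none higher, Dusp1 from 1342 ± 8.69 to 849 ± 29.0 TPM and Klf9 from 41.7 ± 1.51 to 31.9 ± 1.21 TPM (SD, n = 3 each), the latter lost in 11 of 15 alternatives. Of all genes tested 2.37% were called higher and 6.51% lower. Sgk1 was at 315 ± 22.2 TPM without dDAVP and 327 ± 32.1 TPM with it. Between GFP fractions 5 of 8 were called higher and none lower, with a median of 0.79, while 12.1% of all genes tested were called higher. Sgk1, the kinase that keeps the epithelial sodium channel at the surface, rose from 361 ± 140 to 762 ± 288 TPM, Fkbp5 from 178 ± 66.1 to 284 ± 38.9 TPM, Per1 from 35.3 ± 9.84 to 60.6 ± 7.09 TPM and Zbtb16 from 4.90 ± 6.35 to 10.8 ± 12.1 TPM (SD, n = 8 each). Outside the ribosome biogenesis list, the other called genes of these lists fell outside the naming rule and are given after their values were seen. With dDAVP they were Ltf, given above, and Socs3, the feedback inhibitor of cytokine signalling (log2 difference −0.74). Between fractions they were Atf5 (−0.80), Socs3 (−0.66), Eif4e (−0.26), Smarca2 (0.38), Ccl20 (−1.45), Cd14 (0.64), Fasn (−0.54), Agpat2 (−0.16), Spi1 (−0.91) and Tsc22d3, the glucocorticoid-induced leucine zipper gene (0.79). Ccl20 averaged 4.67 ± 5.38 TPM in GFP-negative and 0.478 ± 0.292 TPM in GFP-positive libraries (SD, n = 8 each) and passed the filter only through the former, so its call is no support for a difference. The SDs of these list genes cover 4 clones that differ in level, while the tests are within clones. Apart from Lbp and Gadd45a, the GFP calls of the list genes named here were lost in the clone set with fewer detected genes (limma).

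**Figure D4:**
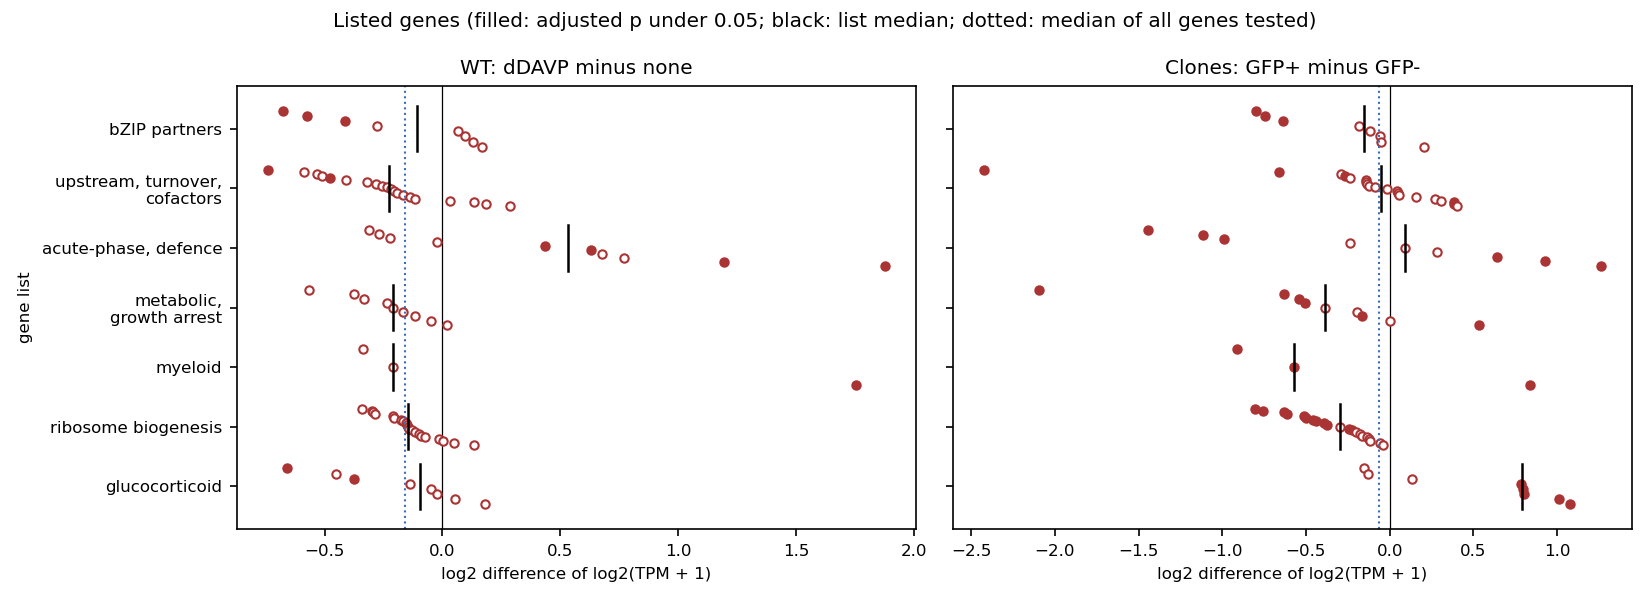
Differences of mean log2(TPM + 1) (horizontal axis) for the tested genes of 7 lists, with dDAVP in WT cells (left) and between GFP fractions over all clones (right). Filled points have a limma adjusted p under 0.05, black bars are list medians and the dotted line the median of all genes tested (−0.16 and −0.06). The ribosome biogenesis list has a median of −0.30 and the glucocorticoid list one of 0.79 in the right plot.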

How the data were processed

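RNA from 22 mpkCCD libraries was made into cDNA with the SMART-Seq HT kit and Nextera XT and read as paired 50 base ends, per the labels' protocols. The submitters' processing notes name STAR and RSEM, with no version, and the genome build is not given in the sources used here. The authors deposited TPM per gene and library in 55415 lines. Lines sharing 1 of 79 symbols (980 lines) were summed, which joined 2 Ddit3 lines and left 54514 entries. Depth cannot be read from TPM, so precision rests on replicate spread. No library pair within a group held identical values.

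Linear models were fitted to log2(TPM + 1) with limma 3.58.1 in R 4.3.3, with a mean-variance trend, two-sided, over genes averaging 1 TPM or more in the libraries compared, and adjusted over all of them by Benjamini-Hochberg (call: adjusted p under 0.05). For dDAVP the 6 WT libraries were fitted, and for GFP the 16 clone libraries with clone as covariate. The fits were tested on simulated data. The members and lists were chosen with earlier results of these data known. Named list genes are the called ones averaging 5 TPM or more with groups apart (WT) or 1 sign in 8 same-numbered pairs, a count only, at most 4 per list, and Ddit3. Those most like a member are the 3 genes of highest Pearson r. Alternatives were a pseudocount of 0.1, filters at 5 TPM and at any TPM above 0, median-ratio and quantile scaling, no trend, a replicate block, the number of genes detected, clone means, and leaving out each library or clone.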

Additional observations from a re-analysis of the deposited data

How the results depend on the processing

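The Cebpd differences with dDAVP and between GFP fractions were called, in the same direction, in all 15 and all 31 alternatives run (log2 2.69 to 3.08 and 1.28 to 1.52). The count of members called with dDAVP was 1 in place of 2 with any TPM above 0, with no mean-variance trend, with the replicate block and among libraries with more genes detected, and 1 to 2 leaving out single libraries. Over the GFP fractions it was 1 in place of 3 among libraries with fewer genes detected, 4 without clone C43, 2 with any TPM above 0, both other scalings, no trend, clone means, more genes detected or without any other clone, and 2 to 3 leaving out single libraries. Within C1 it was 1 in place of 2 with any TPM above 0, median-ratio scaling and the replicate block, and 3 with the filter at 5 TPM (1 to 3 leaving out single libraries), within C11 it was 1 with both other scalings (1 to 2), within C43 it was 1 with any TPM above 0 and both other scalings (1 to 2), and within C50 it was 1 with any TPM above 0 and median-ratio scaling (1 to 2). The interaction count was 1 in place of 0 with quantile normalization (0 to 1), and that of clone differences was 1 to 3. Reversed differences were those of Cebpz with dDAVP (0.074 with median-ratio scaling, 0.073 with quantile normalization), Cebpz in C43 (0.12 with median-ratio scaling, 0.14 with quantile normalization, and −0.29 to 0.15 leaving out single libraries, among them 0.15 without replicate 2 of GFP-negative and 0.06 without replicate 1 of GFP-positive) and Cebpb in C11 (−0.0090 with quantile normalization). None of these was called, and the cause was not tested.

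Both other scalings moved the median change of all genes with dDAVP from −0.16 to −0.0012 (median-ratio) and −0.02 (quantile), and within C43 from −0.16 to 0.0038 and 0.0026. Same-numbered WT libraries had deviations correlated at −0.21, −0.03 and −0.11, and the clone pairs at 0.02 to 0.20, so the numbers are not taken to pair them. With the replicate block 122 genes were called with dDAVP in place of 1198. TPM keep no depth, so how far depth limits Cebpa and Cebpe is unknown.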
